A study of Mus musculus with 30 samples.

Results

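The 10 genes described here encode parts of the hormonal and nitric oxide systems that set arterial tone: *Agt*, *Ace* and *Agtr1a* of the angiotensin system, the endothelin receptors *Ednra* and *Ednrb*, the adrenergic receptor *Adra1d*, and *Nos3*, *Gucy1a1*, *Npr1* and *Npr3* of the nitric oxide and natriuretic peptide branches. They were taken by name out of 26253 listed genes and all 10 passed the filter on low counts in each comparison. Their transcripts were counted by bulk RNA-seq of the descending thoracic aorta of 30 male C57BL/6J mice. VEDS mice, a model of vascular Ehlers-Danlos syndrome, were heterozygous for a glycine substitution in type III collagen (*Col3a1G938D/+*), and controls were their *Col3a1+/+* counterparts. The 3 HS aortas came from VEDS mice on hydralazine (32 mg/kg/day from birth) and spironolactone (100 mg/kg/day from day 21). The 3 HB aortas came from VEDS mice on the same hydralazine and bicalutamide (50 mg/kg/day from day 21). Hydralazine alone was given to 6 VEDS and 6 control mice, and 6 VEDS and 6 control mice were untreated. HS and HB aortas were harvested at day 60, whereas each other group mixed day 30 and day 60 mice without an age label per library, so age and antagonist cannot be told apart in comparisons of HS or HB with those groups. Each library came from 1 aorta cleared of its surrounding fat, and the p-values set differences against the spread between these aortas. In the groups of 6 that spread includes any difference between ages, because age entered no model.

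As background, angiotensinogen (*Agt*) is secreted mostly by the liver and is cut by renin and then by angiotensin-converting enzyme (*Ace*), an enzyme of the endothelial surface, into angiotensin II, which constricts arteries through the AT1 receptor (*Agtr1a*). Endothelin constricts through *Ednra* on smooth muscle, while *Ednrb* on endothelium promotes release of nitric oxide. Opposing these, endothelial nitric oxide synthase (*Nos3*) makes nitric oxide, which activates soluble guanylyl cyclase (*Gucy1a1* encodes a subunit of it) in smooth muscle, and natriuretic peptides raise the same second messenger, cGMP, through *Npr1* and are cleared by *Npr3*. Noradrenaline from sympathetic nerves constricts the mouse aorta largely through the alpha-1D receptor (*Adra1d*). Hydralazine is an arterial vasodilator. Bicalutamide blocks the androgen receptor, and spironolactone blocks the mineralocorticoid receptor and, more weakly, the androgen receptor.

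Libraries held 5517510 to 8293289 expected counts. Smooth muscle markers summed to between 15272 and 28908 CPM (reads as a share of the library, scaled by trimmed mean of M values over all 30 libraries) and endothelial markers to between 788 and 1279 CPM, with all 5 and all 8 markers detected. Hepatocyte markers ranged far more widely, with sums of 92.3 to 15058 CPM, and adipocyte markers with sums of 108 to 1271 CPM. Libraries known to stand apart were HB replicate 2 and control hydralazine replicate 5, with the highest summed cardiomyocyte markers (620 and 652 CPM), and HS replicate 3, with the lowest *Alb* of the antagonist groups (112 CPM). The comparisons that hold any of these 3 libraries were also fitted without them. *Alb* was lower still in VEDS untreated replicate 1, at 47.5 CPM the minimum of the series. That library was not part of this check and was left out only singly.

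Per transcript length, the cGMP and converting enzyme genes were the most abundant of the 10. *Gucy1a1* averaged 54.2 ± 6.73 TPM, *Ace* 38.3 ± 5.92 TPM and *Npr1* 35.2 ± 5.58 TPM (SD, n = 30 each; TPM, a share of all transcripts, corrects for transcript length). *Gucy1a1* exceeded *Ace* in 28 of 30 libraries, and *Ace* exceeded *Npr1* in 26 of 30, although the means of *Ace* and *Npr1* lay closer than either SD. *Adra1d* followed at 9.83 ± 2.79 TPM, then *Nos3* at 6.25 ± 1.02 TPM, *Npr3* at 3.53 ± 0.795 TPM and *Ednrb* at 2.50 ± 1.05 TPM. *Agtr1a* and *Ednra* were the least abundant, at 1.63 ± 0.822 and 1.63 ± 0.505 TPM, and their order varied, with *Agtr1a* above *Ednra* in 12 of 30 libraries. *Agt* had no fixed place, spanning 0.25 to 27.2 TPM around a median of 4.55 TPM, and exceeded *Nos3* in 11 of 30 libraries.

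**Figure D1:**
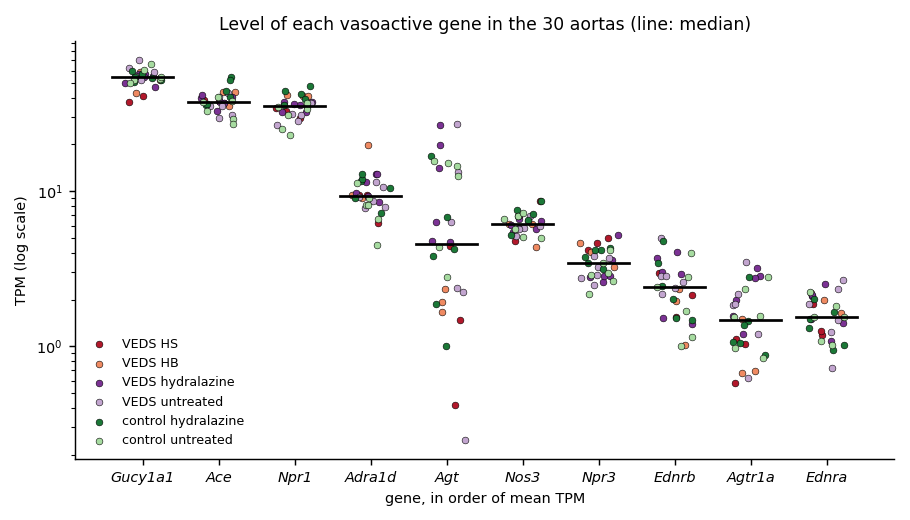
TPM on a log scale (y axis) of each gene in the 30 aortas (points, coloured by group, with a line at the median), ordered by mean TPM. *Gucy1a1*, *Ace* and *Npr1* have medians of 54.4, 37.8 and 35.4 TPM, and *Agt* spreads from 0.25 to 27.2 TPM.

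The genes also differed in how far they varied among aortas. *Gucy1a1* was the steadiest, with a coefficient of variation of 11.4% and a 1.57-fold range in CPM over the 30 libraries. *Ace*, *Npr1* and *Nos3* had coefficients of 14.9%, 15.8% and 17.9%, and *Npr3*, *Adra1d* and *Ednra* of 24.9%, 25.4% and 25.9%. *Ednrb* (36.4%) and *Agtr1a* (45.9%) varied more, and *Agt* by far the most, at 92.4% with a 94.9-fold range. The lowest *Agt* library rested on 5 reads and the highest on 485, while *Agtr1a* rested on 13 to 79 reads and *Ednra* on 31 to 96, so the values of these 3 genes carry more counting error than those of *Gucy1a1*, with 1837 to 3417 reads. *Agtr1b*, a near copy of *Agtr1a* in mouse, was assigned 2 to 12 reads, and reads that fit both genes were divided by estimation, which makes the value of *Agtr1a* less certain.

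The first question was whether chronic vasodilation changed the expression of these genes. Across both genotypes, hydralazine shifted each of the 10 genes by less than 0.26 on the log2 scale, and 0 of 10 passed an adjusted p of 0.05 by edgeR's quasi-likelihood test or by DESeq2. Over all genes edgeR called 0.00746% (1 gene) and DESeq2 called 58 genes. DESeq2 started from every gene with a read in the libraries compared, so its counts are not shares of the genes edgeR tested. *Npr1*, the cGMP-coupled receptor, had 182, 217 and 241 CPM (lowest, median, highest) in VEDS hydralazine aortas, against 159, 190 and 257 CPM in VEDS untreated aortas, and 224, 241 and 268 CPM in control hydralazine aortas, against 143, 203 and 250 CPM in control untreated aortas. The ranges overlapped in both genotypes, with the medians higher on hydralazine. The fitted log2 fold change was 0.21 ± 0.09 (SE; 95% confidence interval 0.03 to 0.39, adjusted p = 0.378).

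*Adra1d* had a median of 39.0 CPM in VEDS hydralazine aortas, against 33.0 CPM in VEDS untreated aortas, and of 40.5 CPM in control hydralazine aortas, against 33.3 CPM in control untreated aortas. Its log2 fold change was 0.25 ± 0.11 (interval 0.02 to 0.49, adjusted p = 0.415). *Gucy1a1* went the other way, with medians of 377 CPM in VEDS hydralazine aortas against 434 CPM in VEDS untreated aortas, and of 391 CPM in control hydralazine aortas against 430 CPM in control untreated aortas. Its log2 fold change was -0.14 ± 0.06 (interval -0.26 to -0.02, adjusted p = 0.375). These 3 of 10 genes had an unadjusted p under 0.05, as did 10.8% of all 13407 genes tested. *Ace* stood at 0.17 ± 0.08 (interval -0.01 to 0.34) and *Npr3* at 0.15 ± 0.11 (interval -0.09 to 0.39). The intervals of *Nos3* (-0.15 to 0.23), *Ednra* (-0.40 to 0.25) and *Ednrb* (-0.38 to 0.53) all held 0. Those of *Agtr1a* (-0.51 to 0.46) and *Agt* (-1.31 to 0.83) held 0 as well and were the widest of the 10. The median log2 fold change of the 10 genes was 0.06, against -0.0016 over all genes tested.

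Within each genotype the same picture held. In VEDS aortas hydralazine gave 0 of 10 called genes by edgeR or DESeq2, beside 0% called by edgeR and 2 genes by DESeq2. At an unadjusted p under 0.05 there were 0 of 10, beside 4.53% of 13006 genes. In control aortas 0 of 10 were called by either tool, beside 0% called by edgeR and 3 genes by DESeq2. There *Npr1* was under 0.05 unadjusted (log2 fold change 0.28 ± 0.13, adjusted p = 0.521), beside 9.5% of 12951 genes. For none of the 10 genes did the treated and untreated groups separate without overlap, which 0.192% of genes did in VEDS and 0.355% in control aortas. The difference between the 2 genotypes in the effect of hydralazine was tested directly as an interaction. By edgeR 0 of 10 genes were called, DESeq2 called 0 of 10, and 0 of 10 were under 0.05 unadjusted, beside 0% of genes called and 3.28% under 0.05. The widest interaction estimate was that of *Agt*, 1.55 ± 0.99 (interval -0.50 to 3.59), which combined 0.52 ± 0.75 in VEDS and -1.03 ± 0.56 in control aortas. As single libraries were left out, the *Agt* estimate ran from 1.22 to 2.36 for the interaction, from 0.18 to 1.32 in VEDS and from -1.67 to -0.80 in control aortas.

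**Figure D2:**
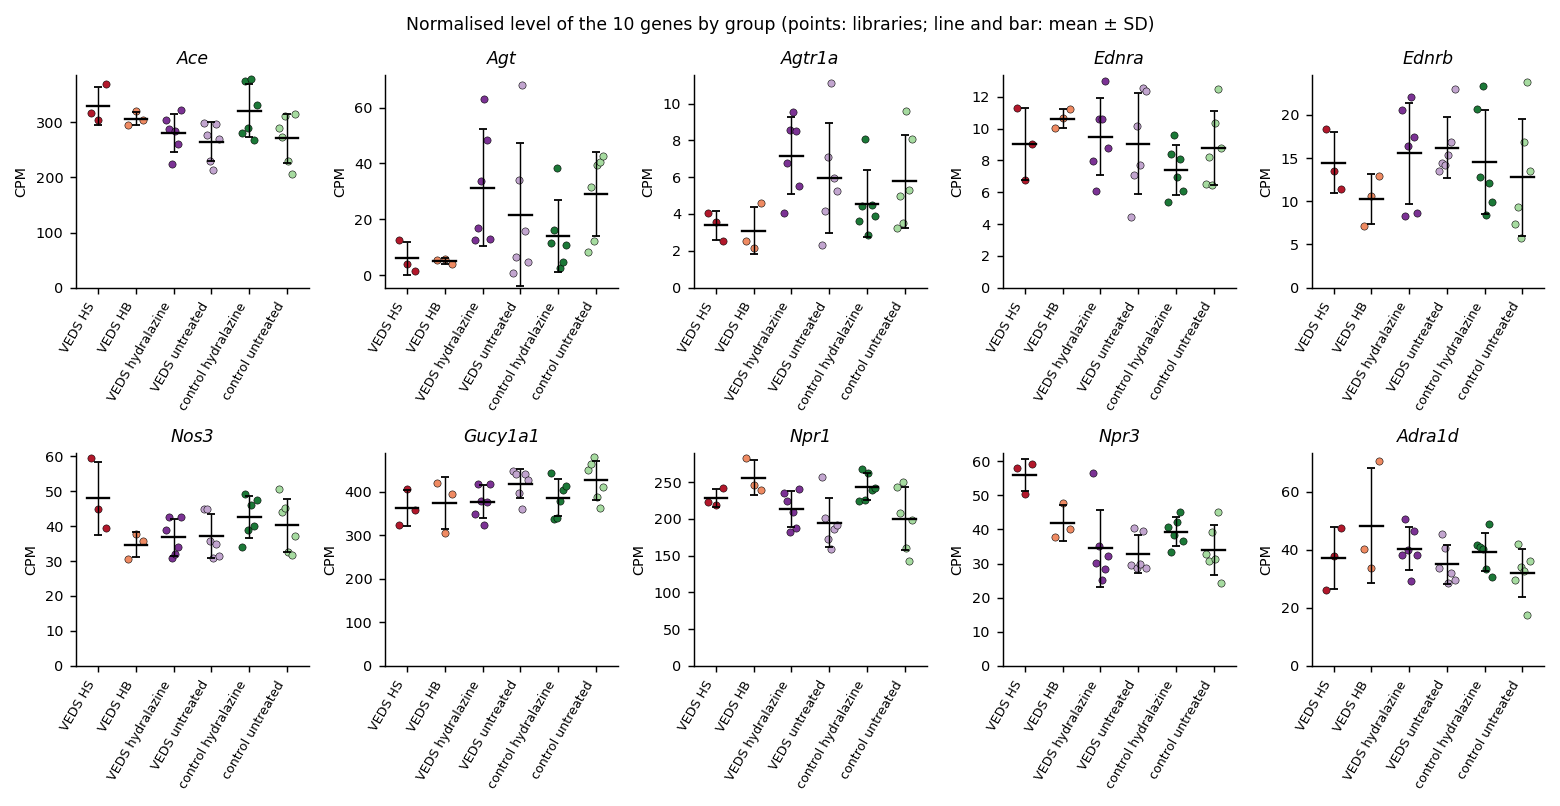
CPM (y axis, 1 panel a gene) of each library (points) in the 6 groups, with the mean and SD as a line and bar. *Npr3* sits between 50.5 and 59.1 CPM in the 3 HS aortas and between 28.6 and 40.4 CPM in the 6 VEDS untreated aortas, and *Agt* lies at or below 12.6 CPM in all 6 HS and HB aortas.

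The second comparison asked what the collagen mutation itself changed. Between VEDS and control untreated aortas, 0 of 10 genes were called by edgeR, 0 by DESeq2 and 0 were under 0.05 unadjusted, beside 0% of genes called and 3.04% of 12976 genes under 0.05. Log2 fold changes ran from -0.41 for *Agt* to 0.34 for *Ednrb*, and all 10 intervals held 0. The *Agt* estimate ran from -1.22 to -0.16 as single libraries were left out. For *Gucy1a1* the interval was narrow, -0.20 to 0.15, with VEDS untreated aortas at 418 ± 34.0 CPM and control untreated aortas at 425 ± 45.7 CPM (SD, n = 6 each). For *Ace* it was -0.29 to 0.22, with 265 ± 35.5 CPM in VEDS untreated aortas and 271 ± 44.5 CPM in control untreated aortas. No gene of the 10 separated the groups without overlap, and 0.146% of all genes did.

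Under hydralazine, VEDS and control aortas differed in 0 of 10 genes by edgeR and 0 by DESeq2, beside 0% of genes called by edgeR and 4 genes by DESeq2. *Agtr1a* and *Npr1* were under 0.05 unadjusted, 2 of 10 beside 4.64% of 12966 genes. *Agtr1a* had 4.05, 7.65 and 9.54 CPM (lowest, median, highest) in VEDS hydralazine aortas, against 2.83, 4.14 and 8.06 CPM in control hydralazine aortas. The groups overlapped, and the log2 fold change was 0.64 ± 0.27 (interval 0.07 to 1.21, adjusted p = 0.923). *Npr1* stood at -0.19 ± 0.08 (interval -0.37 to -0.02, adjusted p = 0.923). *Agt*, which followed *Agtr1a* over the libraries, stood at 1.13 ± 0.58 (interval -0.11 to 2.38), or 0.80 to 1.78 as single libraries were left out, and *Alb* at 0.80 ± 0.73. Hepatocyte markers summed to 1886 to 11927 CPM in VEDS hydralazine aortas and to 557 to 10828 CPM in control hydralazine aortas, and their part in these differences was not tested. None of the 10 genes separated the groups, as 0.201% of genes did.

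The angiotensin genes gave the largest estimates when an antagonist was added to hydralazine. *Agt* had 5.61, 5.99 and 4.02 CPM in HB aortas and 12.6, 4.03 and 1.46 CPM in HS aortas, against 12.8, 16.8, 33.8, 63.0, 48.4 and 13.0 CPM in VEDS hydralazine aortas. All 6 HS and HB values lay below all 6 values on hydralazine alone. For HS this rested on a small gap, 12.62 CPM (84 reads) in HS replicate 1 against 12.76 CPM (82 reads) in VEDS hydralazine replicate 1. Over all genes, 8.25% separated HB and 5.77% separated HS from hydralazine alone without overlap. The log2 fold change was -2.61 ± 0.62 in HB (interval -3.97 to -1.25, adjusted p = 0.112) and -2.38 ± 0.74 in HS (interval -4.02 to -0.75, adjusted p = 0.332). DESeq2 called the HB difference (adjusted p = 0.00165). Against untreated VEDS aortas, which held 0.719 to 68.2 CPM, the groups overlapped, at -2.08 ± 1.09 in HB and -1.87 ± 1.17 in HS.

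*Agtr1a*, the AT1 receptor, had 2.55, 2.16 and 4.58 CPM in HB aortas and 4.06, 3.55 and 2.53 CPM in HS aortas, against 4.05, 6.77, 8.54, 9.54, 8.52 and 5.54 CPM in VEDS hydralazine aortas. The lowest hydralazine value fell within the range of each antagonist group. The log2 fold change was -1.19 ± 0.33 in HB (adjusted p = 0.132 by edgeR, 0.0274 by DESeq2) and -1.08 ± 0.30 in HS (adjusted p = 0.332). For *Ace*, the estimates against hydralazine alone were 0.12 ± 0.10 in HB (interval -0.11 to 0.35) and 0.23 ± 0.12 in HS (interval -0.02 to 0.49).

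*Agt* followed transcripts best known from the liver across all aortas. *Alb*, albumin, ranged from 47.5 to 10859 CPM and was also low in the antagonist groups, at no more than 556 CPM in the 3 HB aortas and at 1107, 441 and 112 CPM in the HS aortas, against 1213 to 9108 CPM in VEDS hydralazine aortas. Its log2 fold change against hydralazine alone was -3.21 ± 0.71 in HB and -2.94 ± 0.90 in HS. *Agt* per 1000 CPM of *Alb* lay between 4.60 and 15.2 in the 30 libraries, a 3.29-fold range, whereas *Agt* itself ranged 94.9-fold. The ratio was not constant, at 9.15 to 14.7 in the HS and HB aortas and 6.33 to 10.5 in VEDS hydralazine aortas. For *Agtr1a* this ratio ranged 65.0-fold, more than *Agtr1a* itself (5.14-fold).

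**Figure D3:**
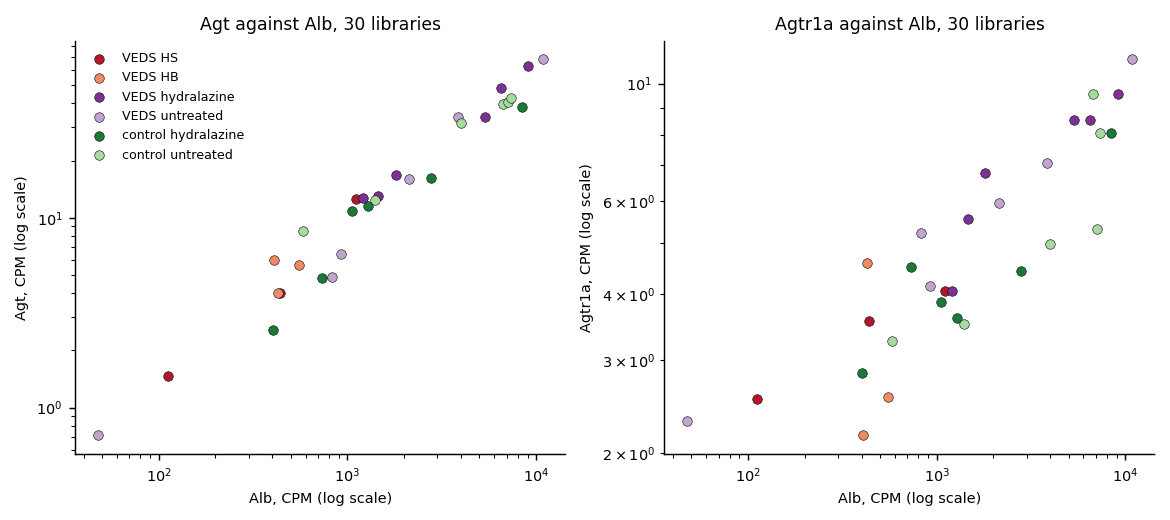
*Agt* (left) and *Agtr1a* (right) in CPM against *Alb* in CPM, both axes on log scales, 1 point a library coloured by group. *Agt* runs along *Alb* from 0.719 to 68.2 CPM with the HS and HB aortas in the lower part, and *Agtr1a* spans 2.16 to 11.1 CPM.

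Over the 30 libraries, log2(CPM + 1) of *Agt* correlated with the mean of the 6 hepatocyte markers at Pearson r = 0.99 and Spearman rho = 0.98, with a permutation p of 1e-05 for each, the smallest that 100000 permutations can give (adjusted p = 6.67e-05 for r over the 40 relations computed between 10 genes and 4 marker lists). Without the 2 libraries farthest from the median r was 0.99, and within the 4 groups of 6 aortas it was 0.99 to 1.00. As a description, the 3 genes most like *Agt* in pattern over the 30 libraries were *Serpinf2*, *Plg* and *F2* (r = 0.99, 0.99 and 0.99), which encode the plasma proteins antiplasmin, plasminogen and prothrombin. *Agtr1a* correlated with the hepatocyte markers at r = 0.84 and rho = 0.82 (permutation p = 1e-05, adjusted p = 6.67e-05), at 0.83 without the 2 farthest libraries and at 0.81 to 0.96 within groups. Its nearest genes were *Slc40a1*, the iron exporter ferroportin (r = 0.92), *Pklr*, the pyruvate kinase of liver and red cells (0.89), and *Serpina6*, the corticosteroid-binding globulin of plasma (0.89). The part of liver-derived RNA in the *Agt* and *Agtr1a* differences was not tested, and in bulk samples fewer cells of a type and less RNA per cell cannot be told apart.

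The *Agt* promoter is shown because its transcript tracked those of liver genes. The 250 bases before the start, from RefSeq on GRCm38.p6 (chr8:124569707-124569956, minus strand, whereas the counts were made on mm39), hold the TATA box letters (TATAAA, in capitals) from 30 to 25 bases before the start.
*Agt*: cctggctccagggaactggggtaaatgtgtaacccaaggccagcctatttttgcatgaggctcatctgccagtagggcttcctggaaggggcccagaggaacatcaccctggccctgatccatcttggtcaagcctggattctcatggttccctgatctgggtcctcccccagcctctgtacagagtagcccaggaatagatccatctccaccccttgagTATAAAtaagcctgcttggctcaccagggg
These letters occurred on either strand in 12.4% of the 32851 promoters of the table and in 2 of the 9 promoters found for 7 of the 10 genes.

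*Npr3*, the receptor that removes natriuretic peptides from the circulation, had the difference nearest to the threshold. HS aortas held 58.2, 50.5 and 59.1 CPM, against 29.5, 40.4, 28.6, 29.8, 39.6 and 28.7 CPM in VEDS untreated aortas. The groups did not overlap, as was so for 5.46% of all genes, and the log2 fold change was 0.76 ± 0.13 (interval 0.46 to 1.06). The adjusted p was 0.0578 by edgeR, 0.000166 by DESeq2 and 0.0357 when all 30 libraries shared 1 edgeR fit, so the call depended on the method. Without HS replicate 3 the estimate was 0.73 and the adjusted p 0.303. In TPM, HS aortas held 5.00, 4.64 and 4.20, against 2.49 to 3.84 in VEDS untreated aortas, again without overlap.

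Against the other groups *Npr3* was also at the top in HS. HB aortas held 37.9, 47.8 and 40.1 CPM, below all 3 HS values, and the direct comparison of HS with HB, both at day 60, gave 0.42 ± 0.12 (interval 0.15 to 0.70, adjusted p = 0.679). In TPM these 2 groups overlapped, with 4.61 in HB replicate 2 and 4.20 in HS replicate 3. VEDS hydralazine aortas held 25.0, 31.2 and 56.5 CPM (lowest, median, highest). Replicate 1, at 56.5 CPM, lay within the HS range, and the estimate of HS over hydralazine alone was 0.70 ± 0.21 (interval 0.22 to 1.17, adjusted p = 0.332). HB over untreated VEDS gave 0.35 ± 0.14 (interval 0.04 to 0.66, adjusted p = 0.256). *Npr3* correlated with the endothelial markers over the 30 libraries (r = 0.53, rho = 0.48, permutation p = 0.00297, adjusted p = 0.00699), but within groups r ran from -0.69 to 0.65. Endothelial markers summed to 1042 to 1279 CPM in HS aortas and 788 to 1065 CPM in VEDS untreated aortas, and their part in the *Npr3* difference was not tested. The genes most like *Npr3* were *Anxa3*, an annexin (r = 0.75), *Ankib1* (0.72) and *Pdgfd*, a platelet-derived growth factor (0.70).

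The *Npr3* promoter is shown because this gene stood highest in the HS aortas. The 250 bases before the start (RefSeq, GRCm38.p6, chr15:11907372-11907621, minus strand) hold AGAACA, the half-site letters that androgen, mineralocorticoid and glucocorticoid receptors can bind, in capitals from 31 to 26 bases before the start.
*Npr3*: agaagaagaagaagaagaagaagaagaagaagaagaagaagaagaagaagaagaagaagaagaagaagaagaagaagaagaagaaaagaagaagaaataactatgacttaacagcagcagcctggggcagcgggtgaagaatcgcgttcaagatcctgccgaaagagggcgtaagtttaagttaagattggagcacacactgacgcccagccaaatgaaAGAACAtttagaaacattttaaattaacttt
The 6 letters occurred on either strand in 16.1% of all promoters and in 2 of the 9 promoters of the members, here and in *Ednrb*. A match is a description of the letters only.

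*Npr1*, the signalling receptor for the same peptides, had 283, 246 and 239 CPM in HB aortas and 224, 219 and 242 CPM in HS aortas, against 159, 190 and 257 CPM (lowest, median, highest) in VEDS untreated aortas. Replicate 1 of the untreated group, at 257 CPM, lay above 2 of the 3 HB values. HB over untreated gave 0.39 ± 0.13 (interval 0.09 to 0.68, adjusted p = 0.189), and without that untreated library 0.49 with an adjusted p of 0.0257, so 1 library decided this call. This was not particular to *Npr1*. As single libraries were left out, edgeR called 2 to 529 genes in this comparison, against 54 (0.409%) with all of them. The adjusted p of *Ptgs2* also fell without that untreated library, to 0.00618. HB over hydralazine alone gave 0.25 ± 0.10 (adjusted p = 0.273). HS over untreated gave 0.22 ± 0.13 and HS over HB -0.16 ± 0.10, with intervals that held 0.

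*Nos3*, the endothelial synthase, had 59.5, 45.0 and 39.4 CPM in HS aortas, against 30.6, 37.6 and 35.6 CPM in HB aortas. The groups did not overlap in CPM, as was so for 13.6% of all 12800 genes tested. In TPM they overlapped, with 4.76 in HS replicate 3 and 6.16 in HB replicate 3. The log2 fold change was 0.48 ± 0.17 (interval 0.09 to 0.86, adjusted p = 0.699), and between 0.28 and 0.60 as single libraries were left out. HS over hydralazine alone gave 0.38 ± 0.15 (interval 0.05 to 0.71, adjusted p = 0.339), and between 0.19 and 0.51 as single libraries were left out, with 30.9, 36.4 and 42.6 CPM (lowest, median, highest) in VEDS hydralazine aortas, which overlapped HS. Endothelial markers summed to 1042 to 1279 CPM in HS and 834 to 1154 CPM in HB aortas. *Nos3* followed these markers over the 30 libraries (r = 0.72, rho = 0.73, permutation p = 2e-05, adjusted p = 0.000114, 0.77 without the 2 farthest libraries) and within the 4 groups of 6 (0.72 to 0.92). Whether the *Nos3* difference went beyond that of the endothelial markers was not tested. The genes most like *Nos3* were *Csrp2*, a LIM protein (r = 0.78), the protein kinase *Pkn3* (0.77) and *Klk10*, a kallikrein-related peptidase (0.75).

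*Ednrb* had 7.14, 10.7 and 12.9 CPM in HB aortas, against 13.5, 14.9 and 23.0 CPM (lowest, median, highest) in VEDS untreated aortas. The groups did not overlap in CPM, as was so for 8.67% of all genes. They overlapped in TPM, with 2.33 in HB replicate 3 and 2.17 in VEDS untreated replicate 1. The log2 fold change was -0.66 ± 0.22 (interval -1.15 to -0.18, adjusted p = 0.174). In HS aortas, with 18.3, 13.5 and 11.4 CPM, it was -0.17 ± 0.20. Adipocyte markers also separated HB (125 to 402 CPM) from VEDS untreated aortas (426 to 1271 CPM), and their part in the *Ednrb* difference was not tested. Over the 30 libraries *Ednrb* correlated with the adipocyte markers at r = 0.76 and rho = 0.73 (permutation p = 1e-05, adjusted p = 6.67e-05), at 0.68 without the 2 farthest libraries and at 0.71 to 0.95 within groups. Its nearest genes were *Steap4*, a metalloreductase (r = 0.85), *Acvr1c*, an activin receptor (0.84), and *Pde2a*, a phosphodiesterase that breaks down cGMP (0.84). *Ednra*, the constrictor receptor, had 6.77 to 11.3 CPM in HS and 10.0 to 11.2 CPM in HB aortas, against 4.46 to 12.5 CPM in VEDS untreated aortas, with intervals of -0.71 to 0.69 and -0.41 to 0.86.

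*Ace* had 317, 304 and 370 CPM in HS aortas, against 214 to 300 CPM in VEDS untreated aortas, without overlap, as for 5.46% of all genes. In TPM the groups overlapped, at 37.2 to 38.7 in HS and 29.6 to 43.0 in VEDS untreated aortas. The log2 fold change was 0.31 ± 0.12 (interval 0.03 to 0.58, adjusted p = 0.399), and without HS replicate 3 it was 0.23. *Ace* correlated with the endothelial markers (r = 0.77, rho = 0.77, permutation p = 1e-05, adjusted p = 6.67e-05, 0.71 without the 2 farthest, 0.58 to 0.96 within groups). *Gucy1a1* stood at -0.22 ± 0.10 in HS and -0.17 ± 0.11 in HB over untreated, with overlapping groups. *Adra1d* reached 70.7 CPM in HB replicate 3 and had 40.3 and 33.8 CPM in the other HB aortas, against 28.7 to 45.5 CPM in VEDS untreated aortas, and the estimate was 0.46 ± 0.23 (interval -0.04 to 0.96).

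**Figure D4:**
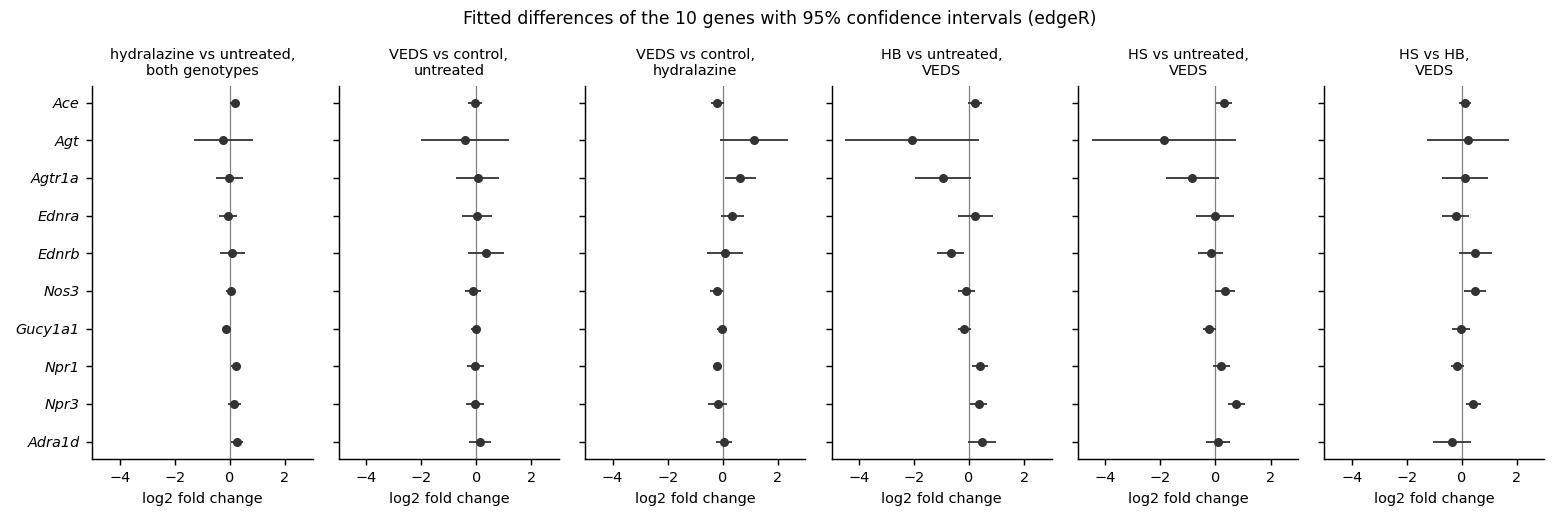
Fitted log2 fold change (x axis, points) from edgeR for the 10 genes in 6 comparisons, with its 95% confidence interval (bars) derived from the F-test. The interval of *Npr3* for HS over untreated VEDS runs from 0.46 to 1.06, and that of *Agt* is the widest in each panel.

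In all, the 4 comparisons of an antagonist group with another VEDS group called 0 of 10 genes by edgeR, and so did HS against HB. Overlap is given here in CPM. In TPM, *Agt* in both comparisons with hydralazine alone and *Npr3* in HS against untreated stayed apart, and the others overlapped. HB against hydralazine alone had 3 of 10 genes under 0.05 unadjusted, beside 15.5% of genes, with 0.0151% called, and 1 of 10 without overlap, beside 8.25%. HS against hydralazine alone had 4 of 10 under 0.05, beside 13.6%, with 0% called, and 1 of 10 without overlap, beside 5.77%. HB against untreated had 3 of 10 under 0.05, beside 16.4%, with 0.409% called, and 1 of 10 without overlap, beside 8.67%. HS against untreated had 2 of 10 under 0.05, beside 11.1%, with 0.309% called, and 2 of 10 without overlap, beside 5.46%. HS against HB had 2 of 10 under 0.05, beside 6.68%, with 0% called, and 2 of 10 without overlap, beside 13.6%. DESeq2, whose counts are not shares of the genes edgeR tested, called 2 of 10 in HB against hydralazine alone (*Agt* and *Agtr1a*). There it called 574 genes in all. It called 1 of 10 in HS against untreated (*Npr3*), beside 288 genes in all. In the other 3 it called 0 of 10, beside 561 genes in HB against untreated, 52 in HS against hydralazine and 35 in HS against HB. The comparisons with untreated or hydralazine-treated VEDS aortas share those reference libraries.

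Several of the 10 genes varied together over the aortas. Of the 45 pairs, *Agt* and *Agtr1a* had the highest correlation (r = 0.86, rho = 0.83, permutation p = 1e-05, adjusted p = 0.000225, 0.83 without the 2 farthest libraries, 0.83 to 0.97 within groups). *Ace* and *Npr1* came next (r = 0.83, rho = 0.75, permutation p = 1e-05, adjusted p = 0.000225, 0.75 without the 2 farthest, 0.80 to 0.94 within groups). *Npr1* followed the smooth muscle markers (r = 0.74, rho = 0.74, permutation p = 1e-05, adjusted p = 6.67e-05, 0.71 without the 2 farthest, 0.28 to 0.95 within groups) and, in the opposite direction, the hepatocyte markers (r = -0.66, rho = -0.63, permutation p = 7e-05, adjusted p = 0.00035, -0.98 to -0.45 within groups). Its nearest genes were *Scube3*, a secreted protein (r = 0.93), the adenylyl cyclase *Adcy5* (0.92) and *Lims2*, a focal adhesion protein (0.92). Those of *Ace* included *Jcad*, an endothelial junction protein (0.84), and *Clip1*, a microtubule-binding protein (0.84). *Ednra* and *Ednrb* both ran against the smooth muscle markers (r = -0.64 and -0.73, rho = -0.61 and -0.75, permutation p = 0.00015 and 1e-05, adjusted p = 0.000667 and 6.67e-05), at -0.60 and -0.67 without the 2 farthest and at -0.97 to -0.74 and -0.92 to -0.61 within groups. These relations were not limited to 1 marker list a gene. *Npr1* also correlated with the endothelial markers (r = 0.59, permutation adjusted p = 0.00194, 0.52 to 0.94 within groups). *Ace* and *Nos3* also correlated with the smooth muscle markers (r = 0.59 and 0.53, permutation adjusted p = 0.00194 and 0.00633). In all, 20 of the 40 relations had an adjusted p of 0.05 or less for r. All shares come from the same libraries, so a higher share of one tissue lowers that of the others. *Gucy1a1* was closest to *Xpr1*, a phosphate exporter (0.79), *Tlcd5* (0.75) and *Zfp563* (0.75). *Adra1d* was closest to *Slc44a2*, a choline transporter (0.82), *Pdgfrb*, a growth factor receptor of mural cells (0.76), and *Lgr6* (0.73), and *Ednra* to the zinc finger gene *Plagl1* (0.81), the chloride transporter *Clcn5* (0.78) and *Ccn4* (0.76).

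**Figure D5:**
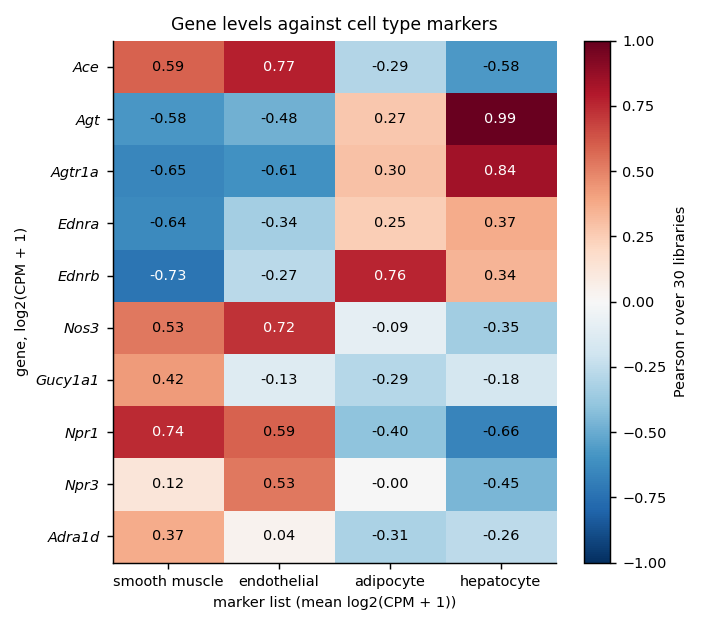
Pearson r over the 30 libraries (colour and printed value) between log2(CPM + 1) of each gene (rows) and the mean log2(CPM + 1) of 4 cell type marker lists (columns). *Agt* has 0.99 with hepatocyte markers, *Ednrb* 0.76 with adipocyte markers and *Ace* 0.77 with endothelial markers.

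The promoters of *Ace* and *Npr1* are shown side by side because these genes varied together. Capitals mark the GC box GGGCGG and the TATA box TATAAA, each on either strand. Both are the 250 bases before the start from RefSeq on GRCm38.p6, *Ace* from chr11:105967698-105967947 (plus strand; the first of 2 promoters in the table) and *Npr1* from chr3:90465867-90466116 (minus strand).
*Ace*: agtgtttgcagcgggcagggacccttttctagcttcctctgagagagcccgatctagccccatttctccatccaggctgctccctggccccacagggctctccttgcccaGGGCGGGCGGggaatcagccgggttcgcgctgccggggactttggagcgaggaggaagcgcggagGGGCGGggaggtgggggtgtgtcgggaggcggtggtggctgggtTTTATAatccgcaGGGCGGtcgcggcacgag
*Npr1*: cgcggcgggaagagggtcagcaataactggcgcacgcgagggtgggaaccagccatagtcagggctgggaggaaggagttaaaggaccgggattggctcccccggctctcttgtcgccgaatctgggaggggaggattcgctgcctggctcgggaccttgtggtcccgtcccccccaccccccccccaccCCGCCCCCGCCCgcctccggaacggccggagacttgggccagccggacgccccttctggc
*Ace* held 4 GC boxes, the first pair overlapping, and a TATA box on the other strand from 31 to 26 bases before the start, and *Npr1* held 2 GC boxes on the other strand. The GC box occurred in 32.7% of all promoters and in 3 of the 9 promoters of the members.

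The rest of these pathways was read through 6 lists of ligands, enzymes and receptors with 89 further genes, of which 61 to 65 were tested in a comparison. Of these, 1 gene was called in HB against untreated VEDS, beside 0.409% of all genes, and 0 in the other 10 comparisons. *Ptgs2*, the inducible cyclooxygenase that makes prostaglandin precursors, had 24.7, 19.3 and 25.4 CPM in HB aortas, against 6.47 to 13.9 CPM in VEDS untreated aortas. The groups did not overlap, as was so for 8.67% of all genes, and *Ptgs2* rose by 1.33 ± 0.22 on the log2 scale (adjusted p = 0.0427). As single libraries were left out the estimate was at least 1.25. The adjusted p was then 0.00618 without VEDS untreated replicate 1, but above 0.05, up to 0.204, without any 1 of the other libraries. In HS aortas, with 11.9, 19.8 and 37.0 CPM, the estimate was 1.32 ± 0.33 (adjusted p = 0.163). The median log2 fold change of the further genes in HB against untreated was 0.06 and that of all genes -0.015. Of the 64 tested, 14 were under 0.05 upward and 5 downward, beside 1115 upward and 1050 downward of all 13204 genes (16.4% together). The other antagonist comparisons had 6 upward and 6 downward (HB against hydralazine), 2 and 5 (HS against hydralazine), 7 and 4 (HS against untreated) and 2 and 5 (HS against HB).

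Among the ligands, which were singled out after their values were seen, endothelin-1 (*Edn1*) was assigned 86 to 176 reads a library, while renin (*Ren1*) had 0 to 12, and the natriuretic peptide genes *Nppb* and *Nppc* at most 1 read each. *Nppa*, also made by atrial muscle, reached 41 reads. Receptors outside the members such as *Npr2* (300 to 578 reads) were well covered, whereas *Mas1* and *Agtr2* had at most 1 and 23 reads.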

How the data were processed

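RNA of the 30 aortas was made into stranded total RNA libraries and sequenced in pairs. The authors aligned reads to mm39 with STAR and RSEM, which gave the deposited expected counts (estimated read pairs per gene) and the deposited TPM values, scaled for effective length. Expected counts (97.6% whole within 1e-06) were rounded. Counts were tested with edgeR 4.0.16 (R 4.3.3), using TMM scaling, filterByExpr, the quasi-likelihood F-test and Benjamini-Hochberg adjustment over all genes tested, with a threshold of 0.05, each comparison on its own libraries, in 11 comparisons. Libraries of a group carried no replicate numbers in the labels, and extraction batch was not labelled per library. All 10 genes, pathway genes called (at most 8 a comparison) and, per gene, the 3 with the highest r among 13534 genes of at least 1 CPM on average were named, apart from items not reported here. The members and lists were chosen with earlier results of these data known. Alternatives were size factors (RLE), DESeq2 1.42.0, no filter, 1 fit of all 30 libraries, 1 surrogate variable (sva 3.50.0) and leaving out each library. A further alternative left out whichever of the 3 libraries that stood apart a comparison held. Where a comparison held 1 of them, this repeated a fit with a single library left out. Scripts were tested on simulated data. CPM in the text is TMM-scaled over 30 libraries. Promoters came from RefSeq on GRCm38.p6. 0 pairs of libraries were identical.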

Additional observations from a re-analysis of the deposited data

Results flagged for a closer look

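In 3 of 40 gene and group combinations with 6 libraries, 1 library lay far from the other 5, where chance alone gives about 1 in 20. *Npr3* stood at 56.5 CPM in VEDS hydralazine replicate 1, with the nearest other library at 35.0 CPM. *Agtr1a* stood at 8.06 CPM in control hydralazine replicate 3, with the nearest other at 4.50 CPM, and *Alb* in that library was 8368 CPM, the highest of its group. *Ednrb* stood at 23.0 CPM in VEDS untreated replicate 6, with the nearest other at 16.8 CPM, and the summed adipocyte markers of that group were highest, at 1271 CPM, in the same library.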

How the results depend on the processing

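No paired analysis was possible because the labels give no replicate numbers. Of 673 alternative values for 33 reported log2 fold changes, 646 kept their direction and side of the threshold, 5 newly passed it, 10 (all *Ptgs2*, for which the alternatives were chosen after seeing the data) no longer did and 12 changed sign. Besides single libraries left out, *Ptgs2* lost its call in the fit of all 30 libraries (adjusted p = 0.188). With 1 surrogate variable, the hydralazine estimate over both genotypes became 0.18 for *Agt* and 0.10 for *Agtr1a*, and as single libraries were left out it ran from -0.445 to 0.0661 for *Agt*, -0.120 to 0.0893 for *Agtr1a* and -0.0232 to 0.191 for *Ednrb*. The number of the 10 genes called was 2 by DESeq2 in HB against hydralazine, and 1 by DESeq2 and 1 in the fit of all 30 libraries in HS against untreated. It ran from 0 to 1 in HB against untreated as single libraries were left out. Counts over all genes moved much more. DESeq2 called 58 genes for hydralazine over both genotypes, 574 in HB and 52 in HS against hydralazine, 561 in HB and 288 in HS against untreated and 35 in HS against HB, where edgeR called 1, 2, 0, 54, 41 and 0. Without HB replicate 2, edgeR called 2 genes in HB against untreated, and without HS replicate 3 it called 1 in HS against untreated. Leaving out single libraries, these 2 included, gave 2 to 529 and 0 to 104. With 1 surrogate variable edgeR called 173 in HB against untreated and 69 against hydralazine, and with all 30 libraries in 1 fit 141 in HS against untreated. The causes were not tested. Groups of 3 aortas and the low reads of *Agt*, *Agtr1a* and *Ednra* limit what differences could be seen.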
